A study of Bos taurus with 8 samples.

Results

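The genes described here encode the class II molecules of the bovine major histocompatibility complex (MHC), whose symbols begin with BOLA-D. A probe set is several short oligonucleotides on the array that read 1 transcript. Those of the class II genes were picked by symbol alone: every probe set annotated to exactly 1 symbol beginning with BOLA-D, or to CD74. The rule found 20 of the 24016 probe sets that are not platform controls, and they stand for 12 of the 9155 genes named in the annotation. No probe set carried the symbol CD74, the invariant chain that holds new class II molecules in the endoplasmic reticulum, so CD74 was not analysed here. BOLA-DOB and BOLA-DRB2 were not analysed here for the same reason. The family was selected on values already known from these arrays, its differences between animals among them. Those differences are therefore given as a description, without a test.

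Udder tissue of 4 lactating Holstein cattle (Bos taurus) was biopsied in 2 states, which gave 8 arrays. The full state was sampled 12 h and the empty state 0 h after milk removal, with 1 biopsy of each from every animal. No genotype, age, added treatment or MHC type is given for the animals in the sources used here, and other conditions that changed along with the state cannot be told apart from it. Values are log2 array signals on a scale shared by all arrays, and precision is set by having 4 animals rather than by a depth. The arrays' medians lay between 7.08 and 7.24 and their lower quartiles between 5.98 and 6.03. The full arrays of cows 2 and 4 were the least like the others, with a median correlation to the remaining 7 arrays of 0.969 and 0.975. For the other 6 arrays it was 0.986 to 0.987. Of 8 mammary epithelium markers 0 lay below the lower quartile on all arrays, and transcripts of the milk proteins LALBA and PAEP averaged 14.20 and 14.39 in full gland and 14.20 and 14.38 in empty gland.

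Class II molecules are pairs of an alpha and a beta chain that carry peptides from swallowed proteins to the surface of dendritic cells, macrophages and B cells, where CD4+ T cells read them. Other cells, epithelium included, can make them when exposed to interferon-gamma. In cattle the DR and DQ molecules are the classical ones. The DQ chains are highly polymorphic, and the number of DQ genes differs between bovine haplotypes. DM loads peptides, DO restrains DM, and DY is a class II pair of ruminants known from dendritic cells. The DR and DQ genes lie in 1 stretch of chromosome 23 and the DY, DM and DO genes in another, in the order of the RefSeq assembly ARS-UCD2.0, to which 11 of the 12 genes could be matched.

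In short, the 4 cows differed in which DQ probe sets rose above the lower quartile of the array, while the DR probe sets were bright in every animal, and no class II probe set passed the test of full against empty gland. Of BOLA-DQA2, 2 of 3 probe sets, and of BOLA-DQB1, 3 of 5, lay below that quartile in cow 4 and above the median in cows 1 to 3. BOLA-DQA5 and BOLA-DQB gave a clear signal in cow 1. The remaining 2 probe sets of BOLA-DQB1 were brightest in cow 4. These patterns held in full and in empty gland.

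**Figure D1:**
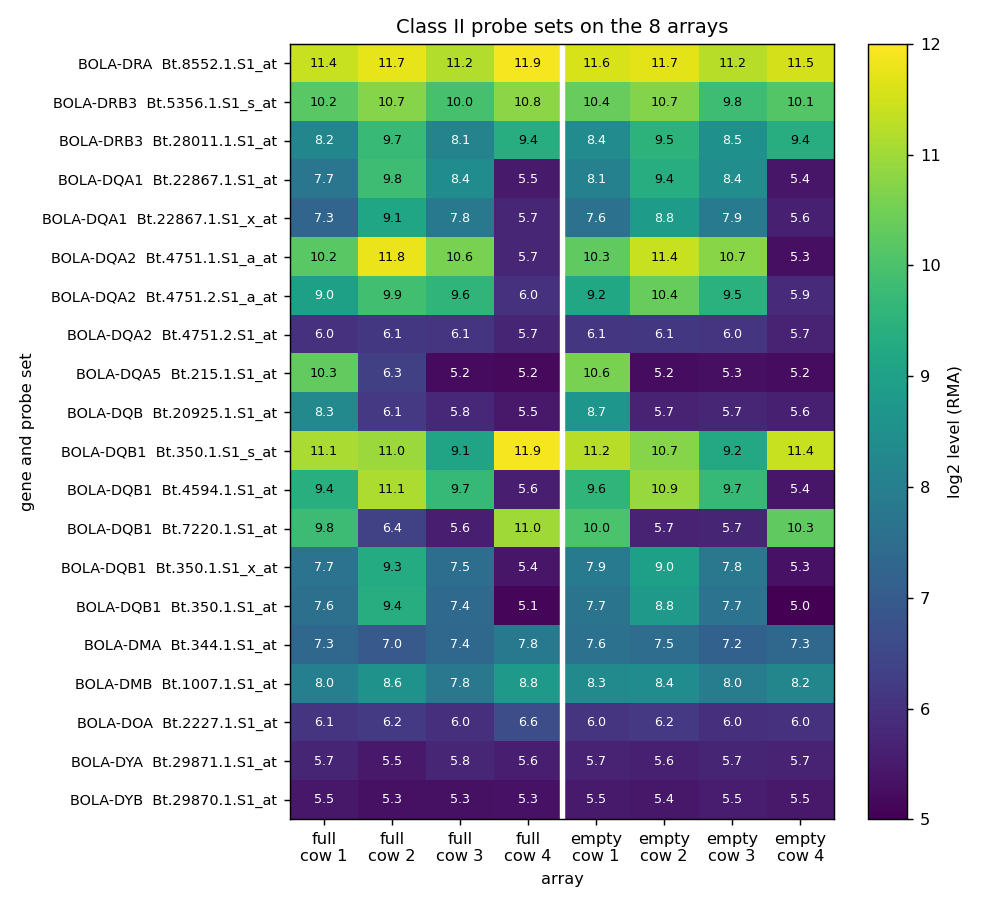
Log2 level (RMA) of the 20 class II probe sets (rows) on the 8 arrays (columns), full gland of cows 1 to 4 left of empty gland of cows 1 to 4, with colour and printed number giving the level. Rows of BOLA-DRA stay bright on all arrays, while both BOLA-DQA1 rows, 2 of the 3 BOLA-DQA2 rows and 3 of the BOLA-DQB1 rows turn dark in cow 4, and BOLA-DQA5 and BOLA-DQB are bright in cow 1 only.

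In the names of the probe sets, a plain ending marks probes designed for 1 transcript, a those for transcripts of the same gene, s those shared by related transcripts, and x those with some probes that resemble other sequences.

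The DR chains were measured in every cow. BOLA-DRA, the nearly invariant alpha chain of DR, had log2 levels of 11.41, 11.74, 11.19 and 11.92 in full gland of cows 1 to 4, against 11.59, 11.72, 11.24 and 11.54 in empty gland. The 8 values ran from the 96.5th to the 98.5th percentile of their arrays. BOLA-DRB3, the beta chain of the main DR molecule in cattle, had 2 probe sets. The first (Bt.5356.1.S1_s_at) had 10.21, 10.72, 9.95 and 10.77 in full gland of cows 1 to 4, against 10.37, 10.69, 9.84 and 10.14 in empty gland. The other (Bt.28011.1.S1_at) had 8.21, 9.74, 8.12 and 9.35 in full gland of cows 1 to 4, against 8.37, 9.53, 8.51 and 9.37 in empty gland. Both arrays of cows 2 and 4 lay above all arrays of cows 1 and 3 for Bt.28011.1.S1_at, and the highest and lowest cow mean differed by 1.35 log2, against 0.81 for Bt.5356.1.S1_s_at and 0.51 for BOLA-DRA. The largest difference between the 2 biopsies of 1 cow was 0.38, 0.63 and 0.38 for these 3 probe sets.

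The DQ alpha chains separated the animals. BOLA-DQA2 was measured by 3 probe sets, of which the brightest, Bt.4751.1.S1_a_at, had log2 levels of 10.21, 11.81, 10.60 and 5.74 in full gland of cows 1 to 4, against 10.29, 11.42, 10.75 and 5.30 in empty gland. Cow 4 lay below all 6 arrays of the other cows, and the highest and lowest cow mean were 6.09 log2 apart, a 68.3-fold ratio of signals. That was the second widest range of cow means among all 24016 probe sets. Within a cow the biopsies differed by at most 0.44. The second probe set, Bt.4751.2.S1_a_at, had 8.97, 9.89, 9.58 and 5.99 in full gland of cows 1 to 4, against 9.19, 10.37, 9.48 and 5.85 in empty gland. The last, Bt.4751.2.S1_at, lay near the lower quartile on every array, at 5.99, 6.14, 6.07 and 5.71 in full gland of cows 1 to 4, against 6.10, 6.13, 6.05 and 5.71 in empty gland. Its range of cow means was 0.42, with cow 4 lowest. Differences between cows this close to the lower quartile were not read as agreement with the other probe sets. Its values correlated with those of the other 2 probe sets at r = 0.985 for both over the 8 arrays. The 8 arrays come from 4 cows and are not independent, so this and the other correlations are descriptions.

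BOLA-DQA1, a further DQ alpha chain, had 2 probe sets from 1 source sequence. Bt.22867.1.S1_at had 7.74, 9.81, 8.39 and 5.51 in full gland of cows 1 to 4, against 8.08, 9.37, 8.44 and 5.43 in empty gland, and Bt.22867.1.S1_x_at had 7.28, 9.14, 7.83 and 5.75 in full gland of cows 1 to 4, against 7.63, 8.83, 7.87 and 5.60 in empty gland. The order of the cows was that of BOLA-DQA2, with cow 2 highest and cow 4 lowest. Another probe set, annotated to BOLA-DQA1 together with a second gene and so left out by the rule, stayed between 5.19 and 5.34 on all 8 arrays, with a range of cow means of 0.11.

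BOLA-DQA5 was distributed otherwise. Its probe set Bt.215.1.S1_at had 10.33, 6.31, 5.22 and 5.19 in full gland of cows 1 to 4, against 10.58, 5.24, 5.30 and 5.24 in empty gland. Cow 1 lay about 4 log2 or more above every other array, in both states. Among the remaining 6 arrays the full gland of cow 2 was the highest, 1.08 above the empty gland of the same cow.

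BOLA-DQB, annotated as a DQ beta chain gene between BOLA-DQA2 and BOLA-DQA5 on the RefSeq assembly, followed BOLA-DQA5 closely. Its probe set Bt.20925.1.S1_at had 8.29, 6.15, 5.78 and 5.48 in full gland of cows 1 to 4, against 8.68, 5.68, 5.74 and 5.61 in empty gland. The 2 probe sets, for an alpha and a beta chain, correlated at r = 0.996 over the 8 arrays. Again the full gland of cow 2 came next after cow 1, 0.47 above the empty gland.

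The 5 probe sets of BOLA-DQB1, a DQ beta chain, gave 3 different pictures of the same animals. Bt.4594.1.S1_at had 9.38, 11.13, 9.70 and 5.58 in full gland of cows 1 to 4, against 9.59, 10.93, 9.70 and 5.42 in empty gland. Bt.350.1.S1_at had 7.59, 9.35, 7.39 and 5.10 in full gland of cows 1 to 4, against 7.71, 8.78, 7.67 and 5.02 in empty gland, and Bt.350.1.S1_x_at had 7.68, 9.30, 7.52 and 5.43 in full gland of cows 1 to 4, against 7.87, 8.95, 7.81 and 5.34 in empty gland. In these 3, cow 2 was highest and cow 4 lowest, as in the DQ alpha probe sets BOLA-DQA1 and BOLA-DQA2. On the array of its empty gland, the value of cow 4 for Bt.350.1.S1_at was at the 0.0125th percentile.

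Bt.7220.1.S1_at had 9.80, 6.39, 5.58 and 11.01 in full gland of cows 1 to 4, against 10.02, 5.69, 5.71 and 10.30 in empty gland. Cows 1 and 4 were bright, cow 3 was dim, and cow 2 was above the lower quartile of its array in full and below it in empty gland, so that cow 4 was the highest animal for this probe set and the lowest for Bt.4594.1.S1_at. The 2 probe sets, annotated to the same gene, correlated at r = -0.75 over the 8 arrays. Bt.350.1.S1_s_at, with shared probes and built on the same source sequence as Bt.350.1.S1_at, had 11.11, 10.96, 9.09 and 11.91 in full gland of cows 1 to 4, against 11.23, 10.74, 9.22 and 11.40 in empty gland. It was bright in all 4 cows, with cow 4 highest and cow 3 lowest by 2.50 between their means. It correlated with Bt.350.1.S1_at at r = -0.36 and with BOLA-DRA at r = 0.83.

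A gene-level value of BOLA-DQB1 therefore depends on the probe set taken. The range of cow means was 5.53 for Bt.4594.1.S1_at, 5.01 for Bt.7220.1.S1_at and 2.50 for Bt.350.1.S1_s_at, the brightest of the 5. The mean of all 5 gave 1.57, since probe sets that were high in cow 4 offset those that were low there. For BOLA-DQA2 the brightest probe set gave 6.09 and the mean of its 3 gave 3.57. What share of these differences comes from the number of transcripts and what share from the match between an animal's alleles and the probes was not tested. Whether probe sets annotated to the same symbol read the same gene was not tested either.

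**Figure D2:**
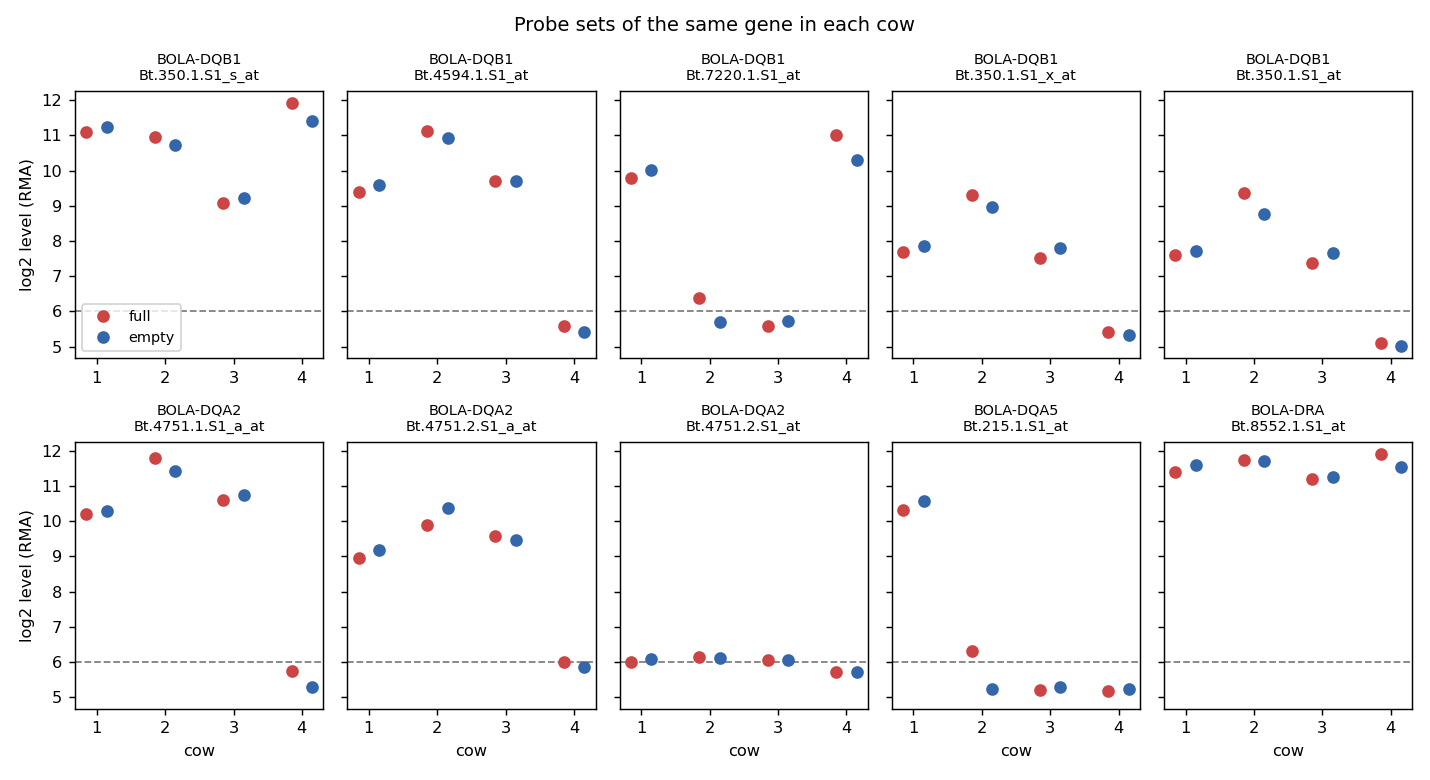
Log2 level (RMA, y axis) by cow (x axis) for the 5 probe sets of BOLA-DQB1, the 3 of BOLA-DQA2, and 1 each of BOLA-DQA5 and BOLA-DRA. Red points are full and blue points empty gland, 1 array each, and the dashed line is the mean lower quartile of the 8 arrays. The 2 points of a cow lie close together while cows differ, and cow 4 is lowest in 3 BOLA-DQB1 panels and highest in the other 2.

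A count over the family used a rule chosen after the values were seen: a probe set was dim in a cow if both its arrays lay below their lower quartile, and bright if both lay above their median. By that rule 10 of the 20 class II probe sets were dim in 1 or more cows and bright in another, and all 10 were among the 12 DQ probe sets. The same held for 0.133% of all 24016 probe sets, which is 32 probe sets in all. Since differences between these cows were known when the family was picked, nothing is read from the contrast with that share. Of the 10, 7 were dim in cow 4 alone, 2 in cows 3 and 4 and 1 in cow 3 alone. The 7 were the 2 of BOLA-DQA1, 2 of BOLA-DQA2 and 3 of BOLA-DQB1. Their levels ran from 5.02 to 5.99 in cow 4 and from 7.28 to 11.81 in cows 1 to 3, and all 7 were highest in cow 2 in both states. The 21 pairs among them, which cover alpha and beta chains, correlated at r = 0.95 to 1.00 over the 8 arrays. The 7 were grouped by the same dim and bright cows, which by itself makes such correlations high, so nothing is read from them.

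For the 10 probe sets the range of cow means was 2.94 to 6.09 log2, or 7.67-fold to 68.3-fold, and 4.87 to 26.3 times the largest difference between the biopsies of 1 cow. The order of the 4 cows was identical in full and empty gland for 7 of the 10. A looser description, that both arrays of 1 cow lay below all 6 arrays of the others, fitted 14 of the 20 class II probe sets and 24.1% of all probe sets. Both arrays of 1 cow lay above all 6 others for 13 of the 20 and for 26% of all. Of the 20 widest ranges of cow means on the array 6 belonged to class II probe sets, again as a description. The widest of all, 7.11, was that of a probe set annotated to BOLA, outside the family. The median range of cow means was 2.72 over the family and 0.28 over all probe sets. The family's median range was 2.81 over the full arrays alone and 2.63 over the empty arrays alone, which leave out the full arrays of cows 2 and 4.

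**Figure D3:**
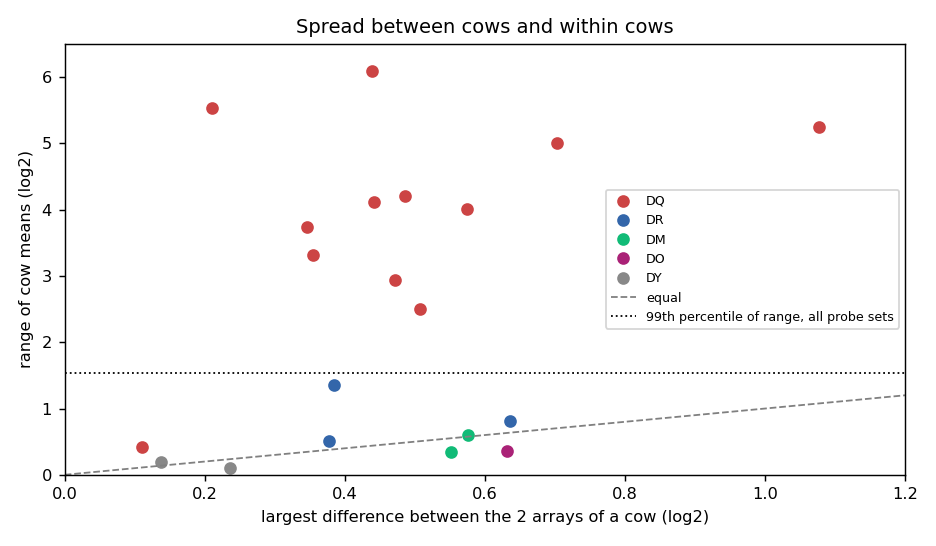
Range of the 4 cow means (y axis, log2) against the largest difference between the 2 arrays of a cow (x axis, log2) for the 20 class II probe sets, coloured by DQ, DR, DM, DO and DY. The dashed line marks equality and the dotted line the 99th percentile of the range over all probe sets, 1.54. The 11 points above the dotted line are all DQ.

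The genes of peptide loading varied less. BOLA-DMA, the alpha chain of DM, had 7.35, 6.96, 7.36 and 7.84 in full gland of cows 1 to 4, against 7.61, 7.51, 7.18 and 7.33 in empty gland. BOLA-DMB, its beta chain, had 8.01, 8.56, 7.82 and 8.79 in full gland of cows 1 to 4, against 8.34, 8.40, 7.97 and 8.21 in empty gland. Their ranges of cow means were 0.35 and 0.61, against largest differences within a cow of 0.55 and 0.57. Over the full arrays alone the ranges were 0.88 and 0.97, and over the empty arrays alone 0.43 and 0.43. BOLA-DMB tracked BOLA-DRA across the arrays (r = 0.98, 8 arrays), whereas BOLA-DMA did so less (r = 0.41).

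BOLA-DOA, the alpha chain of the DM inhibitor DO, lay below the median of every array, with 6.07, 6.20, 5.98 and 6.64 in full gland of cows 1 to 4, against 6.04, 6.15, 5.95 and 6.01 in empty gland. Its highest value was in the full gland of cow 4, and the other 7 arrays lay within 5.95 to 6.20. The DY chains were below the lower quartile on all 8 arrays. BOLA-DYA had values of 5.47 to 5.76 in full and 5.61 to 5.71 in empty gland, and BOLA-DYB of 5.30 to 5.46 in full and 5.45 to 5.54 in empty gland. Differences between cows were not read at that level.

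Full was next compared with empty gland within each cow, the contrast of the design. In a limma model that pairs the biopsies of each animal, no class II probe set passed an adjusted p of 0.05, and 0% of all 24016 probe sets did. The smallest adjusted p in the family was 0.993. At an unadjusted p under 0.05 the family had 0 of 20 and all probe sets 2.5%. Of the 20, 12 had a higher and 8 a lower mean in full gland, and their median difference was 0.03 log2, against -0.00027 over all probe sets. One direction in all 4 cows was seen for BOLA-DOA, higher in full gland (1 of 20, against 4.22% of all probe sets), and for BOLA-DYB, lower (1 of 20, against 5.97%). Without cows 2 and 4, whose full arrays were least like the others, 0 probe sets passed in limma (adjusted p from 0.515), the median difference was -0.13, and the direction of 12 of the 20 differences turned.

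The mean level of BOLA-DRA was 11.56 ± 0.33 in full and 11.52 ± 0.20 in empty gland (mean ± SD over 4 cows). The difference was 0.04 ± 0.11 log2 (limma's moderated SE), with a 95% interval of -0.22 to 0.30 and an adjusted p of 0.993. Its differences in cows 1 to 4 were -0.18, 0.02, -0.05 and 0.38, so that cows 1 and 3 were lower and cows 2 and 4 higher in full gland. For the first probe set of BOLA-DRB3 the difference was 0.15 ± 0.14 (95% interval -0.18 to 0.49), and for the other one -0.09 ± 0.11 (95% interval -0.36 to 0.18). All 3 intervals include 0.

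For BOLA-DQA2 the brightest probe set differed by 0.15 ± 0.13 (SE, n = 4 cows, 95% interval -0.16 to 0.46) and Bt.4751.2.S1_a_at by -0.12 ± 0.12, in the opposite direction. In cow 2, where both are bright, the first was 0.39 higher in full gland and the second differed by -0.49. The BOLA-DQB1 probe sets differed by 0.26 ± 0.19 for Bt.7220.1.S1_at, 0.12 ± 0.13 for Bt.350.1.S1_s_at and 0.03 ± 0.09 for Bt.4594.1.S1_at. The first of these, the family's highest mean, was 0.70 and 0.70 in cows 2 and 4, and -0.22 and -0.14 in cows 1 and 3. BOLA-DQA5 differed by 0.17 ± 0.23, a mean that rests on cow 2, where the gene was dim in empty gland. In cow 1, where BOLA-DQA5 was bright, it differed by -0.25.

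BOLA-DMA differed by -0.03 ± 0.18 and BOLA-DMB by 0.06 ± 0.16, with 95% intervals of -0.48 to 0.42 and -0.32 to 0.45. In cows 2 and 3 the 2 chains of DM went opposite ways, at -0.55 and 0.18 for BOLA-DMA and 0.16 and -0.16 for BOLA-DMB. In cows 1 and 4 they went the same way, at -0.27 and 0.52 for BOLA-DMA and -0.33 and 0.57 for BOLA-DMB. BOLA-DOA differed by 0.18 ± 0.12, with 0.63 in cow 4 and at most 0.05 in the others. BOLA-DYB had the smallest unadjusted p of the family at 0.0922 and differed by -0.14 ± 0.07, at a level below the lower quartile.

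**Figure D4:**
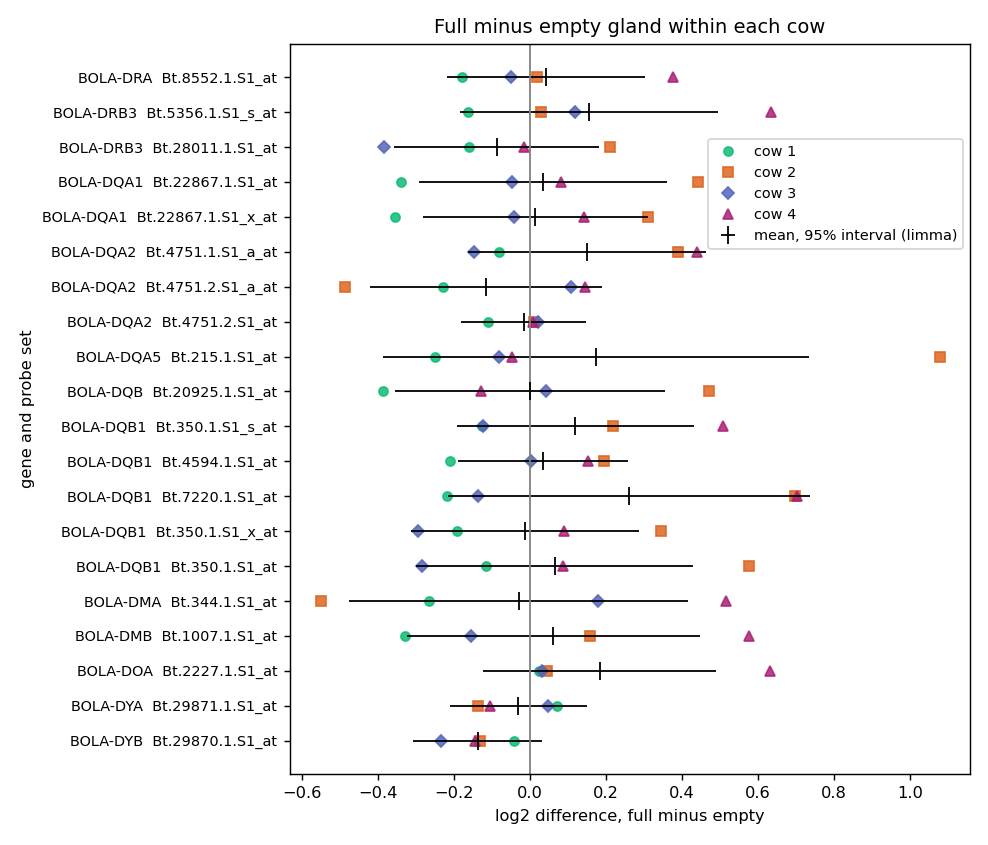
Log2 difference, full minus empty gland, of each class II probe set (rows) in each of the 4 cows (coloured symbols), with the mean and its 95% interval from limma in black. Intervals of all 20 probe sets include 0, and the symbols of cow 1 lie mostly left of 0 while those of cows 2 and 4 lie mostly right of it.

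The cows did not share a direction. In cow 1, 2 of the 20 class II probe sets were higher in full gland, in cow 2 there were 16, in cow 3 there were 8 and in cow 4 there were 15. The share of all probe sets higher in full gland was 41.7%, 50.0%, 51.1% and 53.5% in cows 1 to 4. Among the 5 probe sets that were bright in all cows (BOLA-DRA, both of BOLA-DRB3, BOLA-DMB and Bt.350.1.S1_s_at), the median difference was -0.16, 0.16, -0.12 and 0.51 in cows 1 to 4. In cow 1 none of the 5 was higher in full gland and in cow 2 all 5 were. The 10 DQ probe sets with a dim cow gave these counts in the cows where they were bright: 0 of 10 were higher in full gland in cow 1, 6 of 7 in cow 2, 2 of 7 in cow 3 and 1 of 1 in cow 4. Probe sets annotated to 1 gene can share a target and are not replicates.

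Markers of cells that carry class II were set beside these values. In cows 1 to 4 the median full minus empty difference was -0.38, -0.00089, 0.10 and 0.85 over 10 of 12 macrophage and monocyte markers. Over 6 of 10 listed B and plasma cell symbols, which include an older name of JCHAIN, it was -0.14, 0.03, -0.03 and 0.47. Over 4 of 13 dendritic cell markers it was -0.26, 0.32, -0.10 and 0.67. In all 3 lists and in the 5 bright class II probe sets, cow 1 had the lowest and cow 4 the highest median. The 5 were grouped by a rule set after the values were seen. Over all 20 class II probe sets the medians were -0.19, 0.20, -0.05 and 0.14, so that cow 2 was highest. Over all probe sets of the array cow 1 was lowest and cow 4 highest too, at -0.03, 1.9e-05, 0.0042 and 0.02. The 8 T cell markers had -0.15, 0.42, -0.05 and 0.33. Full arrays of cows 2 and 4 were the least like the others. The SD of full minus empty over all probe sets was 0.19, 0.38, 0.17 and 0.30 in cows 1 to 4. Of the 10 macrophage and monocyte markers, 5 were higher in full gland in cow 2 and 9 in cow 4. CD14 was the exception in cow 4, at -0.24, and differed by -0.97 in cow 2. The medians of 8 mammary epithelium markers lay between -0.02 and 0.03, but single markers did not all stay near 0. The luminal keratins KRT8 and KRT18 differed by -0.72, 0.11, 0.25 and 1.21 and by -0.04, 1.19, -0.05 and 1.36 in cows 1 to 4. EPCAM, an epithelial adhesion protein, differed by 0.81 in cow 2 and by 0.23 in cow 4. The markers ELF5 and BTN1A1 went the other way, at -0.29 and -0.27 in cow 2 and -0.17 and -0.32 in cow 4. The milk protein genes CSN2, LALBA and PAEP differed by at most 0.10 in either direction in any cow. Their levels lay near the top of the value scale, 14.78.

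The mean level of the macrophage list ran from 7.88 to 8.72 in full and from 7.82 to 8.29 in empty gland. For the B and plasma cell list the range was 7.25 to 7.92 in full and 7.27 to 7.71 in empty gland. The dendritic cell list ran from 6.39 to 7.16 in full and from 6.48 to 6.92 in empty gland. RMA gives no zeros, but CD79A, ITGAM, LAMP3 and CD4 lay below the lower quartile on all 8 arrays. In biopsies, fewer cells of a type and less RNA per cell cannot be told apart. The part of immune or epithelial cells in the class II values was not tested.

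**Figure D5:**
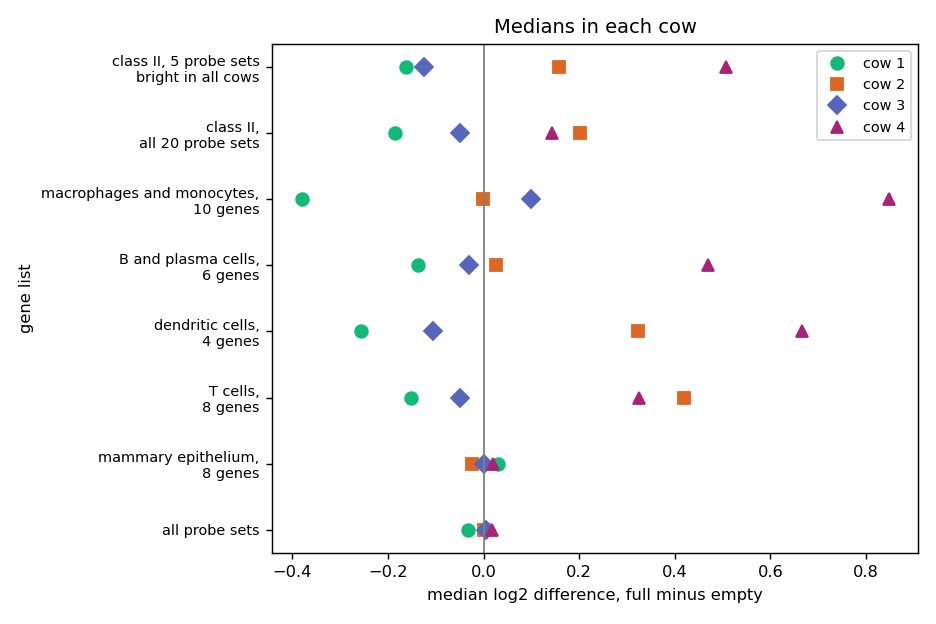
Median log2 difference, full minus empty gland, in each of the 4 cows (symbols) for the class II probe sets, for 5 lists of cell type markers and for all probe sets (rows). Cow 4 lies furthest right for the 5 bright class II probe sets and for macrophages, B and plasma cells and dendritic cells. For all 20 class II probe sets and for T cells it is cow 2. The medians of the mammary epithelium list and of all probe sets lie near 0.

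Other genes of the class II pathway were taken from a list of 38 symbols, older names included, of which 27 had a probe set. None passed in limma (0%), none had an unadjusted p under 0.05, and 15 had a higher and 12 a lower mean in full gland, with a median of 0.01. Each value below is a log2 difference, full minus empty, with limma's moderated SE over 4 cows and an adjusted p of 0.993. The master regulator CIITA was not analysed here. Of the factors that bind class II promoters, 6 were measured and 4 were higher. They included the NF-Y subunits NFYA at -0.16 ± 0.10, NFYC at 0.15 ± 0.10 and NFYB at 0.08 ± 0.07, and RFXANK, a subunit of the RFX complex, at 0.05 ± 0.07. None of the 6 had a range of cow means above 0.56.

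Of the interferon-gamma pathway 3 of 8 genes were measured. IFNGR2, a receptor chain, differed by -0.12 ± 0.09, the kinase JAK1 by -0.09 ± 0.08, and IFNG itself by 0.09 ± 0.09 at a level below the lower quartile in all arrays (5.72 in full, 5.63 in empty gland). Of 13 antigen processing symbols, which include an older name of CTSV, 12 had a probe set, 6 higher and 6 lower. The lysosomal proteases CTSD, CTSL and CTSZ differed by -0.16 ± 0.07, -0.25 ± 0.12 and -0.19 ± 0.13, and CTSD was lower in all 4 cows. IFI30, the reductase that opens disulfide bonds of antigens in lysosomes, differed by 0.17 ± 0.16 and by 0.76 in cow 4. Of 6 measured genes of surface turnover and co-stimulation 4 were higher. The co-stimulatory molecules CD86, CD40 and CD80 differed by 0.26 ± 0.15, 0.21 ± 0.22 and 0.02 ± 0.09, and the T cell co-receptor CD4 by -0.10 ± 0.07. CD80 and CD4 lay below the lower quartile in all arrays.

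Genes whose level followed the family most closely were sought by Pearson's r over the 8 arrays. For BOLA-DQA2 (Bt.4751.1.S1_a_at) they were DLK1 (r = 0.982), BDA20 (r = 0.982), NSA2 (r = 0.976), TBPL1 (r = 0.963) and MRNIP (r = 0.952). BDA20, a lipocalin known as a cattle dander allergen, had 10.92, 11.26, 11.44 and 6.41 in full gland of cows 1 to 4, against 11.04, 11.75, 10.58 and 5.98 in empty gland. The range of cow means was 5.31 for BDA20 and 2.94 for DLK1, but 0.31 for NSA2, 0.47 for TBPL1 and 0.52 for MRNIP. For BOLA-DQB1 (Bt.350.1.S1_s_at) they were CYB5R1 (r = 0.980), NT5C3B (r = 0.977), SEMA4F (r = 0.971), CDKN1C (r = 0.964) and CXXC5 (r = 0.962). With 4 animals many genes share an order of the cows, so these are descriptions of the 8 arrays.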

How the data were processed

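Expression was measured on 8 single-colour bovine arrays, 4 of full and 4 of empty gland. The deposited log2 values come from RMA, which the submitters' processing notes name without a version. That method subtracts background, forces the arrays to 1 distribution and fits 1 value to the probes of a set, so a change shared by all genes is removed. The log2 scale was read from the values, 4.97 to 14.78.

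Of 24128 rows, 112 platform controls were left out. Symbols come from the platform annotation, which can be old; 13292 of the 24016 probe sets had 1 symbol, 86 several and 10638 none. Through entrez numbers 13263 matched RefSeq and 0 symbols changed. Probe sequences, promoters and proteins were not used here.

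Full was compared with empty gland with a linear model per probe set and moderated two-sided tests (limma 3.58.1, R 4.3.3), without further scaling, with cow as a fixed block and Benjamini-Hochberg adjustment over all 24016 probe sets at 0.05. Residual degrees of freedom were 3 and the prior added 2.81. The labels number the cows, and both biopsies of a cow carry its number, so the samples are paired. Deviations from group means correlated at 0.46, 0.32, 0.60 and 0.53 within cows 1 to 4 and at -0.03 or below between cows. Subtracting a group mean lowers the correlations between cows, so the negative values are partly built in. The fit was tested on simulated data. Other genes were represented by their brightest probe set, and tables were made with pandas 2.3.3 in Python 3.11.15.

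The members and lists were chosen with earlier results of these data known. The genes named are all class II probe sets, up to 4 genes with the smallest unadjusted p in each of 4 pathway groups, and the 5 genes of highest r for BOLA-DQA2 and BOLA-DQB1. The same search for CD74 was not made. The rule for dim and bright was set after seeing the values. Alternatives were cow as a random block or no replicate block, arrays centred on their medians, a further quantile normalization, a filter on dim probe sets, leaving out each cow or cows 2 and 4 together, a prior with a trend and robust fit, a threshold of 0.1 and gene-level means.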

Additional observations from a re-analysis of the deposited data

Results flagged for a closer look

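The empty gland of cow 1 lay far from the other 3 empty glands for a pair of genes, at 10.58 for BOLA-DQA5 (gap to the nearest other array 0.989 of the whole range) and at 8.68 for BOLA-DQB (gap 0.958). In full gland cow 1 was highest for both genes too, at 10.33 and 8.29, and the values of cow 2 there, 6.31 and 6.15, came next. Gaps past Dixon's critical value were found in 2 of 40 groups of 4 arrays, where chance gives 1 in 20 for independent groups. These groups are not independent, since full and empty arrays share cows and the 2 probe sets correlated at r = 0.996. That rate is therefore no measure of the gaps. The family was also chosen with these differences between cows known. The gaps are therefore a description, and nothing is read from their number.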

How the results depend on the processing

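Under each alternative fit 0 class II probe sets and 0 pathway genes passed an adjusted p of 0.05, with cow as a replicate block, as a random block or with no replicate block. At a threshold of 0.1, counted with cow as a fixed block, the counts were 0 as well. Adjusted p-values of the class II probe sets lay between 0.515 and 1 over all alternatives. The family's median difference, 0.034, was 0.034 with no replicate block, 0.017 after median centring, 0.049 after repeated quantile normalization, 0.052 with 1 brightest probe set per gene, -0.0086 to 0.13 with each cow left out (negative without cow 2 at -0.0075 and without cow 4) and -0.13 without cows 2 and 4. The count of probe sets with 1 direction in all cows, 2 in all, was 1 after median centring, 0 among the brighter probe sets, 2 to 5 with each cow left out and 14 without cows 2 and 4, where 2 cows remain to share it. The direction of single differences, none of which passed, turned as follows. Without cows 2 and 4 the values were -0.243 for BOLA-DMB, -0.193 for Bt.22867.1.S1_at, -0.198 for Bt.22867.1.S1_x_at, -0.115 for Bt.4751.1.S1_a_at, -0.166 for BOLA-DQA5, -0.105 for Bt.4594.1.S1_at, -0.201 for Bt.350.1.S1_at, -0.179 for Bt.7220.1.S1_at, -0.125 for Bt.350.1.S1_s_at, -0.115 for BOLA-DRA, -0.022 for Bt.5356.1.S1_s_at, 0.059 for BOLA-DYA. With each cow left out the ranges were -0.212 to 0.143 for BOLA-DMA, -0.110 to 0.192 for BOLA-DMB, -0.102 to 0.159 for Bt.22867.1.S1_at, -0.085 to 0.136 for Bt.22867.1.S1_x_at, -0.030 to 0.014 for Bt.4751.2.S1_at, -0.203 to 0.0074 for Bt.4751.2.S1_a_at, -0.127 to 0.315 for BOLA-DQA5, -0.158 to 0.128 for BOLA-DQB, -0.019 to 0.116 for Bt.4594.1.S1_at, -0.133 to 0.081 for Bt.350.1.S1_x_at, -0.105 to 0.181 for Bt.350.1.S1_at, -0.010 to 0.200 for Bt.350.1.S1_s_at, -0.070 to 0.115 for BOLA-DRA, -0.187 to 0.011 for Bt.28011.1.S1_at, -0.0052 to 0.261 for Bt.5356.1.S1_s_at, -0.066 to 0.0040 for BOLA-DYA. Median centring gave -0.0037 for Bt.22867.1.S1_x_at and repeated quantile normalization 0.019 for BOLA-DQB. The cause was not tested. The median range of cow means, 2.72, stayed within 2.63 and 2.81 in full arrays alone, empty arrays alone and both rescalings. Single probe sets could move more, as BOLA-DMA did from 0.35 to 0.88 in full arrays alone and 0.43 in empty arrays alone. With dim set below the median and bright above the upper quartile, 9 of 20 probe sets in place of 10 were dim in 1 cow and bright in another. With 4 cows, signals near the lower quartile limit what can be said of the DO and DY genes and of DQ genes in the cows where they are dim.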

Other observations

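The rule that marks a probe set as dim in 1 cow and bright in another took in 22 further probe sets, 12 of which had no symbol in the annotation. The named ones were ANKRD1, ASZ1, ATP2B1, BANP, BOLA-N, CA5A, CLDN11, FUT6, GSTO1 and PRSS2, named after their values were seen. BOLA-N, an MHC class I gene, was dim in cow 1 and bright in the other 3 cows, with a range of cow means of 3.25, whereas the class II probe sets were dim in cow 4 or cow 3. GSTO1, a glutathione transferase, was dim in cow 3 alone, with a range of 3.40, and ATP2B1, a calcium pump of the plasma membrane, was dim in cow 4 alone, with a range of 2.57.

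In the full gland of cow 2, the 3 class II probe sets that were bright in cow 1 but not in the empty gland of cow 2 were all higher than in its empty gland: BOLA-DQA5 by 1.08, BOLA-DQB by 0.47 and Bt.7220.1.S1_at of BOLA-DQB1 by 0.70 log2. In cow 3, which was dim for the same probe sets, the differences were -0.08, 0.04 and -0.14. In cow 4, also dim for BOLA-DQA5 and BOLA-DQB, they were -0.05 and -0.13 for these genes. The full array of cow 2 was the least like the others, and in that cow the SD of full minus empty over all probe sets was 0.38. These values were picked after they were seen and were not tested.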
